A study of Mus musculus with 13 samples.

Results

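The glycolytic enzymes of muscle were followed as 10 genes, Hk2, Pfkm, Aldoa, Gapdh, Pgk1, Pgam2, Eno3, Pkm, Ldha and Ldhb, chosen by name out of the 21868 genes of the table, and all 10 had a mean normalized count of at least 10 over the 13 mice, as did 12303 genes in all. RNA came from the gastrocnemius of male C57BL/6 mice (substrain C57BL/6N) that were 7 weeks old on arrival, were acclimatized for 1 week and ate a diet with 60 kcal% fat for 15 to 17 weeks before a return to standard chow. Treatment then lasted 3 weeks. Vehicle-treated mice (n = 5) were given phosphate-buffered saline and a placebo, semaglutide-treated mice (n = 5) received the GLP-1 receptor agonist intraperitoneally at 30 nM/kg/day with a placebo, and semaglutide + ketone ester-treated mice (n = 3) received the same dose with a ketone ester, a source of ketone bodies, at 0.114 g/mL in the drinking water. All mice had therefore been made obese by diet and returned to chow, and no lean or untreated animals were analysed here.

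Glycolysis splits glucose into pyruvate and yields ATP without oxygen, and lactate dehydrogenase turns the pyruvate into lactate so that the pathway can continue. Fast skeletal muscle fibres hold these enzymes at very high levels and carry muscle-specific isozymes of several steps, among them the muscle phosphofructokinase Pfkm, the muscle mutase Pgam2 and the muscle enolase Eno3. Slow fibres rely more on oxidation and hold more of the lactate dehydrogenase subunit encoded by Ldhb.

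In semaglutide-treated mice, Pgam2, Pkm, Ldhb, Pfkm and Hk2 transcripts fell relative to vehicle, with log2 fold changes between -1.07 and -0.48, and no enzyme rose. In semaglutide + ketone ester-treated mice, Gapdh, Pgk1, Pgam2, Eno3, Pkm, Ldha and Ldhb were higher than under semaglutide alone, with log2 fold changes between 0.60 and 1.34. Aldoa, which encodes the aldolase that splits fructose bisphosphate, passed in neither comparison, although it was called higher under semaglutide with equal totals and after quantile normalization, and lower under semaglutide + ketone ester than semaglutide after the latter. With equal totals without the mitochondrial genome, Aldoa was called in neither comparison. No enzyme differed between semaglutide + ketone ester and vehicle at an adjusted p under 0.05.

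Upstream sequence is shown for Pgam2, which shared the lowest fold change under semaglutide with Ldhb, and for its neighbour in the pathway Eno3. It is also shown for Ldha, which had the window with the most matches to the searched motifs. Each sequence is the 250 bases before a RefSeq transcription start in GRCm38.p6, the patched release of mm10, read on the strand of the gene. For each window shown, a short stretch after the start was sought in GENCODE protein-coding transcripts of the gene. That stretch was found in neither direction, so the start and strand rest on RefSeq alone. The Eno3 and Ldha windows precede internal starts and lie inside the annotated genes (chr11:70653125-70662513 and chr7:46842274-46855627). Overlap of the windows with exons was not tested. The Pgam2 window is chr11:5803797-5804046 on the minus strand, the Eno3 window chr11:70656926-70657175 on the plus strand and the Ldha window chr7:46845554-46845803 on the plus strand. Capitals mark matches to the consensus of the muscle transcription factor MEF2, to the E-box CAGCTG read by muscle regulatory factors, and to ACGTG, the core of the hypoxia response element, on either strand.
Pgam2: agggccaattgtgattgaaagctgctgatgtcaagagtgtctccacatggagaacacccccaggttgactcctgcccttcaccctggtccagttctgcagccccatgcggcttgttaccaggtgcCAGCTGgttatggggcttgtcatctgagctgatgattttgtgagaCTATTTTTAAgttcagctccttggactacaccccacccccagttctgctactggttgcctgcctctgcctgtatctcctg
Eno3: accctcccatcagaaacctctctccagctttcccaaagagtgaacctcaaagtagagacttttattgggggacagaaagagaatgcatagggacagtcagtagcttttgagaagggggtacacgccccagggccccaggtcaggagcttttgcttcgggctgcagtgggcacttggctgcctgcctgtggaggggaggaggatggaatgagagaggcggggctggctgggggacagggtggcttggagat
Ldha: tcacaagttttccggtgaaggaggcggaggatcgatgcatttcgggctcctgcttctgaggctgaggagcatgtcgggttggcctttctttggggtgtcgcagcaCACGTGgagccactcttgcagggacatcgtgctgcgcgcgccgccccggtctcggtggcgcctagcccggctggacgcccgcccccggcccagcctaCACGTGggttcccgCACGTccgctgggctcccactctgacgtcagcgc
In the Pgam2 window the E-box begins 125 bases and the MEF2 match 80 bases before the start site. The Ldha window shown held 5 matches to ACGTG, of which 4 were the forward and reverse readings of the same palindrome CACGTG at 2 places. The other Ldha window, chr7:46846832-46847081, held no match to any searched motif. All 10 genes had a window, and 17 windows were searched because some genes have several starts. Not all were separate, since 2 Aldoa windows overlapped and held the same ACGTG site, counted in both, and 2 Pfkm windows overlapped. The MEF2 consensus was found in 1 of the 17 windows (Pgam2) and in 2.92% of all 32851 windows of this length, CAGCTG in 2 of 17 (Pgam2 and Pkm) and 13.0% of all, and ACGTG in 8 of 17 (Hk2, Pfkm, Aldoa, Pgk1, Pkm and Ldha) and 16.6% of all. TCAGGTT (the MEF3 site), AAGGTCA (the estrogen-related receptor site) and TATAAA were in 0 of the 17 windows, and in 3.49%, 4.08% and 12.4% of all. These matches describe letters in short windows and say nothing of factor binding.

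Between 15319471 and 23498162 reads were counted on genes per mouse, and 3 reads make up at most 1.96e-05% of a library. The share of reads on the enzymes was 2.99% ± 0.129 (SD, n = 5) in vehicle-treated mice, 3.00% ± 0.375 (SD, n = 5) with semaglutide and 3.28% ± 0.168 (SD, n = 3) when the ketone ester was added, while transcripts of the mitochondrial genome took 17.2% to 19.9%, 11.4% to 13.7% and 15.6% to 17.0%. Of the reads outside the mitochondrial genome, the enzymes took 3.67% ± 0.152, 3.43% ± 0.407 and 3.91% ± 0.235 (SD, same mice). On the first principal component of the tested genes, which held 38.1% of the variance, semaglutide mouse 13 scored -9.12 against 31.8 to 52.5 in the other semaglutide-treated mice and -24.5 to -12.8 in vehicle-treated mice. Results are therefore also given without mouse 13, a choice made after seeing the data. Myh4, Acta1 and Ckm, which define skeletal muscle fibres, were abundant in every mouse. In whole muscle, fewer fibres of a type and less RNA per fibre cannot be told apart.

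Values of single mice are normalized counts, listed in the order of the mouse numbers (1 to 5 for vehicle, 13 to 17 for semaglutide, and 19, 21 and 22 for semaglutide + ketone ester). A log2 fold change is the limma estimate on log2(normalized count + 1) with its standard error (SE), and its p is adjusted over all 12303 genes. Levels of different genes can be set side by side only per length. In vehicle-treated mice, normalized counts per kilobase of exon ran from 112159 for Aldoa through 50515 for Eno3, 27669 for Pgam2, 22238 for Pfkm, 21341 for Pkm, 20305 for Ldha and 8006 for Gapdh to 2366 for Ldhb, 2181 for Pgk1 and 1538 for Hk2. Pfkm, Pkm and Ldha lay within the spread of the mice around their neighbours, as did Ldhb and Pgk1, whose SDs were 789 and 152.

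**Figure D1:**
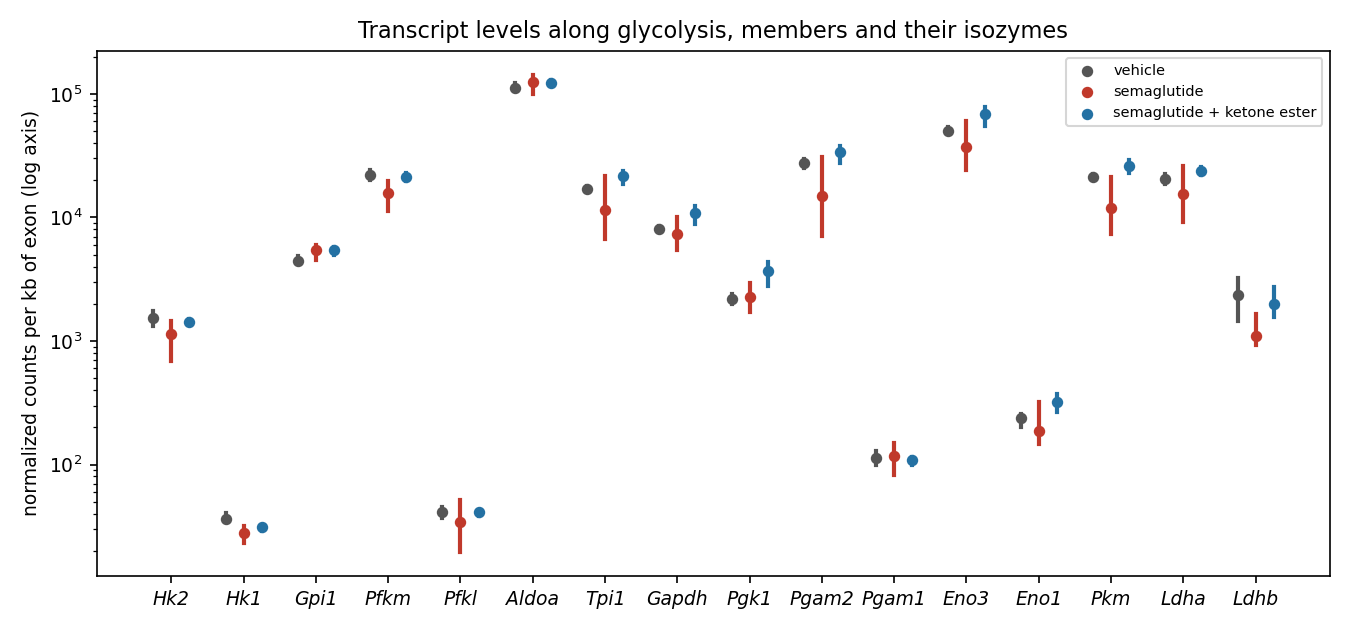
Normalized counts per kilobase of exon (log axis) for the enzymes and their isozymes in pathway order, with the mean of each treatment group as a point and the lowest to highest mouse as a bar. Aldoa sits at the top with a vehicle mean of 112159, Hk2 has the lowest vehicle mean of the 10 enzymes at 1538, and the non-muscle isozymes Hk1, Pfkl, Pgam1 and Eno1 lie far below their muscle counterparts.

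Hk2 encodes hexokinase II, which traps glucose in muscle as glucose phosphate. Its normalized counts were 9730, 8641, 7402, 8185 and 9202 in vehicle-treated mice, 7456, 8191, 5772, 3871 and 6531 in semaglutide-treated mice, and 7648, 7831 and 8395 in semaglutide + ketone ester-treated mice. Semaglutide mice 13 and 14 lay within the vehicle range and the other 3 below it, and the semaglutide + ketone ester-treated mice lay inside the vehicle range. Hk2 fell under semaglutide with a log2 fold change of -0.48 (SE 0.16, adjusted p = 0.041), a call that was kept when 1 mouse was left out in 3 of 13 fits and had an adjusted p of 0.054 in edgeR. Against semaglutide alone, the semaglutide + ketone ester value was 0.37 (SE 0.19, adjusted p = 0.18).

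Pfkm encodes muscle phosphofructokinase, the main control point of the pathway. Counts were 60635, 70443, 67620, 72431 and 62334 under vehicle, 51972, 44850, 58916, 33598 and 48515 under semaglutide, and 64777, 58728 and 68081 under semaglutide + ketone ester. All 5 values under semaglutide were lower than the lowest vehicle value, and semaglutide + ketone ester mouse 21 lay just below the highest semaglutide-treated mouse. The log2 fold change under semaglutide was -0.51 (SE 0.14, adjusted p = 0.016), and the call was kept in all 13 fits that left out 1 mouse. It was lost without a filter on low counts and under quantile normalization. For semaglutide + ketone ester against semaglutide, the difference of 0.45 (SE 0.16) had an adjusted p of 0.064, and 0.034 without mouse 13.

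Aldoa, the most abundant of the enzymes per length, was alone in passing in neither comparison that involved the semaglutide-treated mice. Its counts were 278911, 298344, 315886, 273400 and 271905 under vehicle, 328986, 310548, 367410, 253695 and 326793 under semaglutide, and 310545, 305304 and 331224 under semaglutide + ketone ester. In these counts semaglutide mouse 16 was the lowest of all mice and mice 13, 15 and 17 lay above the vehicle range. As a share of reads on all genes, the mitochondrial genome included, Aldoa took 1.71% to 2.03% in semaglutide-treated mice. In vehicle-treated mice this share was 1.43% to 1.63%. The log2 difference from vehicle was 0.13 (SE 0.15, adjusted p = 0.55) under semaglutide, and Aldoa was called higher with the columns rescaled to equal totals and after quantile normalization. With equal totals without the mitochondrial genome, Aldoa was not called. Between semaglutide + ketone ester and semaglutide the difference was 0.00 (SE 0.18), which changed sign between scalings.

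Gapdh and Pgk1 encode the enzymes of the next steps, the dehydrogenase that makes NADH and the kinase that yields the first ATP of the lower pathway. Gapdh counts were 11606, 12530, 12627, 11431 and 11655 under vehicle, 14941, 10496, 11782, 8202 and 9119 under semaglutide, and 13230, 17169 and 18555 under semaglutide + ketone ester. Pgk1 counts were 3919, 3931, 4375, 4066 and 3607 under vehicle, 5399, 3570, 5073, 3147 and 3554 under semaglutide, and 5097, 7269 and 7910 under semaglutide + ketone ester. In both genes every semaglutide + ketone ester-treated mouse exceeded every vehicle-treated mouse, and the semaglutide-treated mice lay on both sides of the vehicle range, with mouse 13 the highest of them.

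Neither gene passed between semaglutide and vehicle. The log2 difference was -0.16 (SE 0.14, adjusted p = 0.43) for Gapdh and 0.03 (SE 0.15, adjusted p = 0.91) for Pgk1, and both estimates changed sign in alternative fits. Under semaglutide + ketone ester, Gapdh was higher than under semaglutide by 0.60 (SE 0.17, adjusted p = 0.021) and Pgk1 by 0.71 (SE 0.18, adjusted p = 0.013). The Gapdh call was kept in 10 and the Pgk1 call in 11 of the 13 fits that left out 1 mouse. Gapdh was also lost with equal totals, and both were lost when only the 2 groups were fitted. Gapdh shares near-identical sequence with 7 other genes of the table, at 90% identity or more over at least 300 bases, whose counts summed to 67.9% to 79.3% of its own in the 13 mice. Most of these belonged to Gm10358, with 99.1% identity and 50.7% to 57.1% of the Gapdh count, so how reads were divided between them is uncertain. With the counts of all 7 genes added to Gapdh, the log2 difference between semaglutide + ketone ester and semaglutide was 0.59 (limma, adjusted p = 0.022). A match in any transcript of a gene sufficed. All reads of Peli2 (0.98% to 2.74% of the Gapdh count) and Vmn2r60 were therefore added too. Aldoa had such matches in 2 genes, whose counts summed to 2.52% to 2.75% of its own, and the other 8 enzymes had none.

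Pgam2 encodes the muscle form of phosphoglycerate mutase, and it shared the lowest estimate under semaglutide with Ldhb. Counts were 22513, 24169, 25042, 23429 and 21057 in vehicle-treated mice, 25730, 11782, 10627, 5993 and 8675 in semaglutide-treated mice, and 23068, 29870 and 31943 in semaglutide + ketone ester-treated mice. Mouse 13 lay above all vehicle-treated mice, whereas the other 4 semaglutide-treated mice were far below the lowest of them. The group means were 23242 ± 1536 (SD, n = 5), 12561 ± 7681 (SD, n = 5) and 28294 ± 4643 (SD, n = 3). Pgam2 fell under semaglutide by 1.07 on the log2 scale (SE 0.28, adjusted p = 0.012) and was 1.34 higher under semaglutide + ketone ester than under semaglutide (SE 0.32, adjusted p = 0.010). Without mouse 13 these values were -1.37 (SE 0.16) and 1.64 (SE 0.19), with adjusted p = 2.4e-05 and 2.2e-05. The call under semaglutide was kept in all 13 fits that left out 1 mouse. The call between semaglutide + ketone ester and semaglutide was kept in 12 of them, and was lost when only the 2 groups were fitted.

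Eno3 encodes the muscle enolase, which makes phosphoenolpyruvate. Counts were 76432, 84023, 80363, 79616 and 75098 under vehicle, 93882, 51236, 62958, 38210 and 44423 under semaglutide, and 85830, 116672 and 122735 under semaglutide + ketone ester. Apart from mouse 13, the semaglutide-treated mice lay below the vehicle range, and all 3 semaglutide + ketone ester-treated mice lay above it. With all mice, the difference under semaglutide was -0.52 (SE 0.20) and did not pass (adjusted p = 0.074), whereas without mouse 13 it was -0.71 (SE 0.15, adjusted p = 0.0021). Eno3 was higher under semaglutide + ketone ester than under semaglutide by 0.96 (SE 0.23, adjusted p = 0.012). This call was kept in 11 of the 13 fits that left out 1 mouse. It was lost after quantile normalization and when only the 2 groups were fitted.

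Pkm encodes the pyruvate kinase of muscle, which makes pyruvate and ATP. Counts were 52719, 55431, 57479, 58543 and 53153 under vehicle, 55156, 27555, 30678, 18996 and 22622 under semaglutide, and 59503, 68412 and 75912 under semaglutide + ketone ester. Mouse 13 lay inside the vehicle range, the other 4 semaglutide-treated mice were at or below 30678, and every semaglutide + ketone ester-treated mouse was above the vehicle range. Pkm fell under semaglutide by 0.94 on the log2 scale (SE 0.22, adjusted p = 0.0064) and was 1.23 higher under semaglutide + ketone ester than under semaglutide (SE 0.25, adjusted p = 0.0042). Both calls were kept in all 13 fits that left out 1 mouse and in all 11 other alternatives. The table gives Pkm as 1 value per mouse, so its muscle and embryonic splice forms were not separated.

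Ldha encodes the lactate dehydrogenase subunit of fast muscle. Counts were 38748, 39877, 42496, 35502 and 35764 under vehicle, 49062, 24728, 31239, 17542 and 24104 under semaglutide, and 41602, 48624 and 46000 under semaglutide + ketone ester. Mouse 13 was the highest of all mice, while the other semaglutide-treated mice were below every vehicle-treated mouse. The difference under semaglutide was -0.48 (SE 0.20) and did not pass with all mice (adjusted p = 0.099), but it was -0.68 (SE 0.14, adjusted p = 0.0015) without mouse 13. Ldha was higher under semaglutide + ketone ester than under semaglutide by 0.72 (SE 0.24, adjusted p = 0.045), a call that was kept in 1 of the 13 fits that left out 1 mouse, the fit without mouse 13, and had an adjusted p of 0.064 in edgeR.

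Ldhb encodes the lactate dehydrogenase subunit typical of heart and slow fibres. Counts were 3428, 2125, 1892, 4242 and 3739 under vehicle, 1199, 2165, 1209, 1258 and 1358 under semaglutide, and 2207, 2028 and 3582 under semaglutide + ketone ester. Mouse 13 had the lowest value of all, so that it lay with its group here and apart from it in most other enzymes. Mouse 14 was the highest of the semaglutide-treated mice and overlapped vehicle mice 2 and 3. Ldhb fell under semaglutide by 1.07 on the log2 scale (SE 0.24, adjusted p = 0.0057), with or without any 1 mouse, and was 0.85 higher under semaglutide + ketone ester (SE 0.28, adjusted p = 0.043), a call kept in 6 of the 13 fits that left out 1 mouse.

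Markers of slow fibres, which hold more Ldhb, also varied from mouse to mouse. The summed counts of 10 slow-fibre genes, led by Myh7, were 43900, 20478, 11134, 36468 and 35975 under vehicle, 19105, 28021, 10307, 21748 and 18751 under semaglutide, and 15903, 25740 and 29536 under semaglutide + ketone ester. Vehicle mice 2 and 3, lowest in Ldhb within their group, were also lowest in this sum, and semaglutide mouse 14 was highest of its group in both. Other mice did not follow, since semaglutide mouse 15 had the lowest sum of its group with an Ldhb count close to those of mice 13 and 16, and semaglutide + ketone ester mouse 19 had the lowest sum of its group but more Ldhb than mouse 21. As a percentage of this sum, Ldhb was 11.4% ± 3.40 (SD, n = 5) with vehicle, 7.75% ± 2.35 (SD, n = 5) with semaglutide and 11.3% ± 3.08 (SD, n = 3) when the ketone ester was added. The ranges of the percentage overlapped, from 7.81% to 17.0% under vehicle and from 5.78% to 11.7% under semaglutide. Of the 10 slow-fibre genes, 0 were higher and 1 lower under semaglutide than vehicle, beside 12.5% and 13.9% of all genes. The part of slow-fibre content in the Ldhb difference was not tested.

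**Figure D2:**
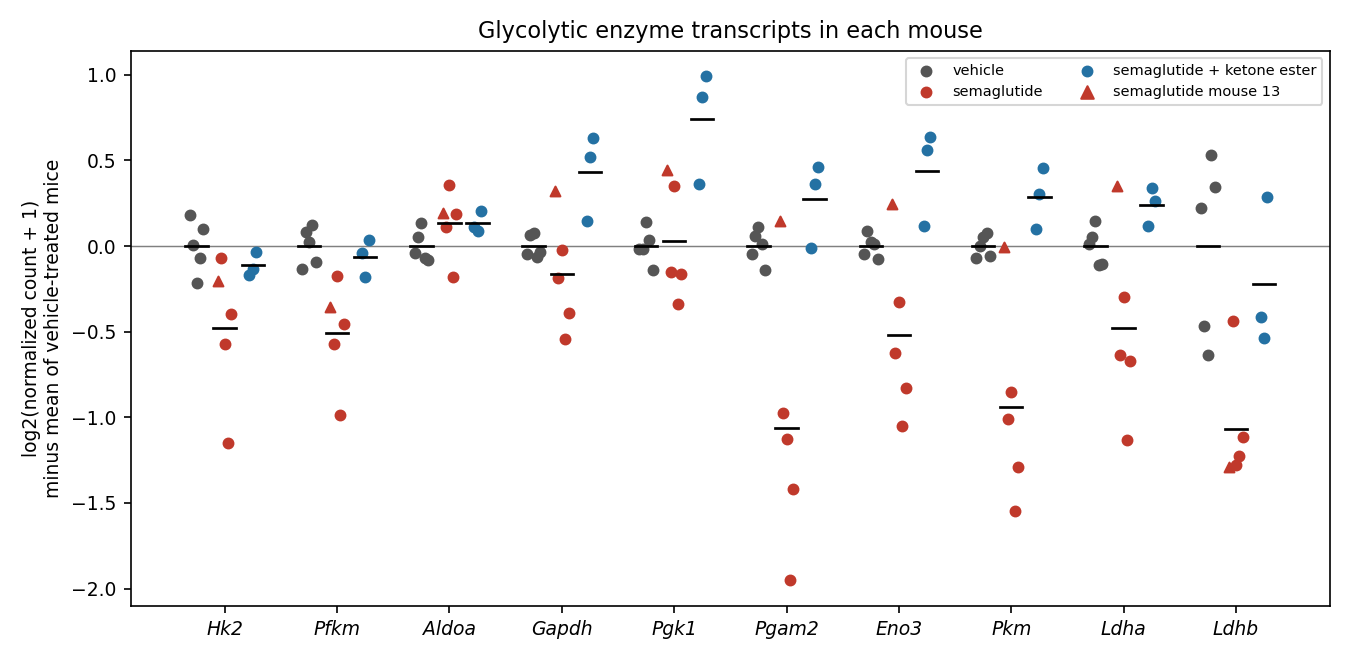
Difference of log2(normalized count + 1) from the mean of vehicle-treated mice for each enzyme, with 1 point per mouse, a triangle for semaglutide mouse 13 and a black bar at each group mean. In Pgam2 and Pkm the other 4 semaglutide-treated mice lie near or below -0.85, mouse 13 lies near 0, and in Ldhb mouse 13 lies with its group.

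Counted together, 0 of the 10 enzymes were higher and 5 lower under semaglutide than vehicle, where 12.5% of all genes tested were called higher and 13.9% lower. The median log2 difference of the 10 was -0.49, against -0.0029 over all genes tested. For semaglutide + ketone ester against semaglutide, 7 were higher and 0 lower beside 10.0% and 10.7% of all genes, with a median of 0.71 against -0.00024. The semaglutide-treated mice enter both comparisons, so the counts are not separate evidence. Without mouse 13, 7 enzymes were lower under semaglutide, beside 19.6% of all genes, and 8 were higher under semaglutide + ketone ester, beside 16.4%. The count of 7 higher under semaglutide + ketone ester rested on few mice. It was 1 without semaglutide + ketone ester mouse 22, 2 without mouse 21 and 4 without semaglutide mouse 17. Calls over all genes fell as well, from 2546 of 12303 with all mice to 1148 without mouse 22. Shares of all genes without mice 21 and 17 are not reported here.

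**Figure D3:**
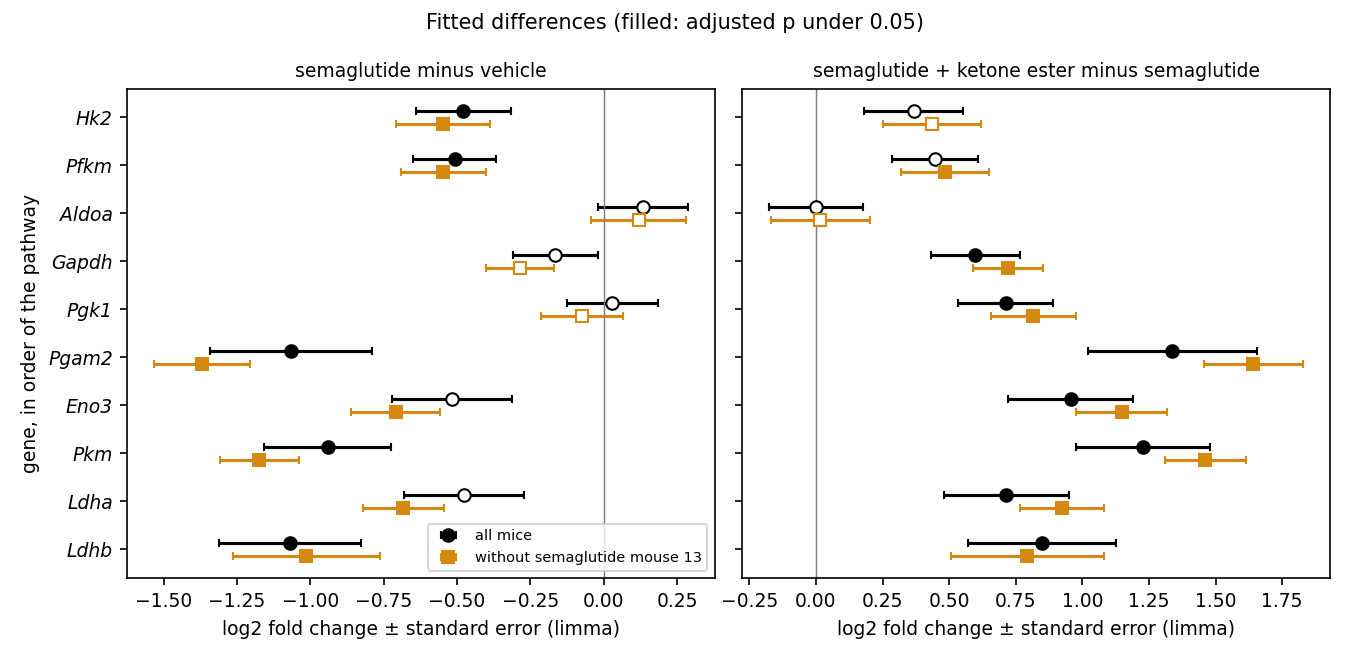
Limma log2 fold changes with standard errors for the 10 enzymes in pathway order, for semaglutide minus vehicle (left) and semaglutide + ketone ester minus semaglutide (right), with all mice (black circles) and without semaglutide mouse 13 (orange squares); filled symbols have an adjusted p under 0.05. Pgam2 moves from -1.07 to -1.37 on the left when mouse 13 is left out, and Eno3 and Ldha become filled there.

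Semaglutide + ketone ester-treated mice were compared with vehicle-treated mice in the same model. None of the 10 enzymes passed in limma, where 0.0975% of all genes were called higher and 0.268% lower. By unadjusted limma p, 2 of the 10 were under 0.05, as were 1283 of all 12303 genes. edgeR called 0 of the 10, beside 45 of all genes. DESeq2 called 1, Pgk1, beside 69 higher and 102 lower among all genes. The limma values were 0.74 for Pgk1 (SE 0.18, adjusted p = 0.10), 0.44 for Eno3 (SE 0.23, adjusted p = 0.57) and 0.43 for Gapdh (SE 0.17, adjusted p = 0.36), and the median of the 10 was 0.26. Pgk1 passed when semaglutide mouse 13, which is in neither of these groups but in the model, was left out.

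The mice of a group also differed in the height of the whole set. The mean log2 difference of the 10 enzymes from the vehicle mean was -0.46, -0.39, -1.01 and -0.65 in semaglutide mice 14 to 17 and -0.015 in mouse 13. Mouse 16 had the highest adipocyte and leukocyte marker sums of all mice (23557 and 1129). Its normalized counts were below every vehicle-treated mouse in all 10 enzymes. Its normalized counts also had the smallest total, 1.49e+07, against 1.74e+07 to 2.06e+07 in the other mice. As a share of reads on all genes, the mitochondrial genome included, Aldoa in mouse 16 (1.71%) was above every vehicle-treated mouse (1.43% to 1.63%). That share depends on mitochondrial transcripts, which took 12.3% of reads in mouse 16 and 17.2% to 19.9% in vehicle-treated mice. In mouse 13 a total of 6 enzymes were above every vehicle-treated mouse and 2 below in normalized counts. Semaglutide + ketone ester mouse 19 had a mean of 0.033, and mice 21 and 22 had 0.22 and 0.39.

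Across the 13 mice, which share the 3 treatments, Pgam2 and Pkm had the most similar profiles of the set (Pearson r = 0.989, log2 scale). Aldoa was the least like the rest, with r from -0.42 with Ldhb through 0.069 with Pkm and 0.10 with Pgam2 to 0.54 with Pgk1. These correlations are descriptions over libraries of unlike groups. Outside the set, the gene most like Pgam2 was Ak1 (r = 0.996), an adenylate kinase, followed by Casq1 (r = 0.992), the calsequestrin of fast fibres, and Tmem25 (r = 0.988). The nearest genes were Sh3bgr (r = 0.989), Ptges3l and Tmem25 for Pkm, Ccng1 (r = 0.986), Tpi1 (r = 0.980) and Aldh1l2 for Eno3, and Tmod1 (r = 0.988), Capzb and Gpd1 for Ldha. For Ldhb they were Atp1b1 (r = 0.970), Bdh1 (r = 0.950), a ketone body dehydrogenase, and Ppip5k1. Hk2 was most like Gstk1 (r = 0.964), Ecsit and Rdh14, and Pfkm like Rundc1 (r = 0.957), Cryz and Wwp1. Aldoa was nearest to its copy Aldoart1 (r = 0.981), to Atp2a1 (r = 0.912), the calcium pump of fast fibres, and to Rcsd1. Gapdh was nearest to its copy Gm10358 (r = 0.991), Mrpl42 and Mylpf, and Pgk1 to Gm10358 (r = 0.937), Deptor and Ints6l.

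Markers of fast fibres and of other cell types were summed in each mouse. Summed counts of 10 fast-fibre genes, in units of 1000, were 2581 to 3179 under vehicle, 1867 to 3103 under semaglutide and 3315 to 3822 under semaglutide + ketone ester. Of these genes, 1 was higher and 2 lower under semaglutide than vehicle, close to the shares of all genes (12.5% and 13.9%). Under semaglutide + ketone ester 5 were higher and 0 lower than under semaglutide (10.0% and 10.7% of all genes). Of 6 fibroblast markers, 0 were higher and 5 lower under semaglutide than vehicle (12.5% and 13.9% of all genes). Under semaglutide + ketone ester 4 of them were higher and 0 lower than under semaglutide (10.0% and 10.7% of all genes). Their summed counts ran from 5655 to 12692 under vehicle, 4870 to 6860 under semaglutide and 7270 to 12014 under semaglutide + ketone ester. Of 6 tendon markers, 0 were higher and 5 lower under semaglutide than vehicle (12.5% and 13.9% of all genes). Adding the ketone ester went with 4 higher and 1 lower than under semaglutide (10.0% and 10.7% of all genes). The tendon sums were 1285 to 7287, 753 to 2805 and 3438 to 4315.

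Summed counts of 5 erythroid genes were 1356 to 2291 under vehicle, 50.5 to 3148 under semaglutide, where mouse 13 was the highest, and 2849 to 5558 under semaglutide + ketone ester. All 5 passed as higher under semaglutide + ketone ester than semaglutide in limma (10.0% of all genes), with log2 differences of 3.62 to 4.07. In edgeR 1 passed (9.77% of all genes), with differences of 2.09 to 2.60 for the 5. Against vehicle, 0 of the 5 passed under semaglutide with all mice (12.5% of all genes higher and 13.9% lower). Without mouse 13, 5 were lower (19.6% of all genes). Of 6 endothelial markers, 0 passed under semaglutide with all mice (12.5% of all genes higher and 13.9% lower), and 1 was lower without mouse 13 (19.6% of all genes). Under semaglutide + ketone ester 3 were higher and 0 lower than under semaglutide (10.0% and 10.7% of all genes). The endothelial sums were 3734 to 4501, 3843 to 4269 and 4265 to 4924. Of 8 adipocyte, 6 leukocyte and 5 Schwann cell markers, 0 passed in either comparison. The shares of all genes were 12.5% and 13.9% in the first and 10.0% and 10.7% in the second. Without mouse 13, 1 adipocyte marker was lower under semaglutide than vehicle (19.6% of all genes). The sums of the adipocyte markers ran from 5873 to 9940, 3845 to 23557 and 6130 to 6831. The highest adipocyte sum was that of semaglutide mouse 16, against 8526 in the next of its group, and its leukocyte sum of 1129 was also the highest, against 410 in the next, 230 to 801 under vehicle and 327 to 691 under semaglutide + ketone ester. The defining markers Myh7, Myh4, Adipoq, Ptprc and Tnmd were above 0 in every mouse. The part of these cell types in the differences of the enzymes was not tested.

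Other enzymes of the pathway did not all follow. Of 21 further glycolytic enzymes, 11 reached the mean of 10. Among these, 2 were higher and 3 lower under semaglutide than vehicle (12.5% and 13.9% of all genes), and 3 were higher and 2 lower under semaglutide + ketone ester than semaglutide (10.0% and 10.7%). Without mouse 13 these counts were 2 and 5 (17.9% and 19.6% of all genes), and 3 and 3 (16.4% and 17.1%). The other 10, among them Pklr and the testis forms Gapdhs, Pgk2 and Ldhc, had means under 10.

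Tpi1, the isomerase between aldolase and Gapdh, had counts of 29515, 30158, 31505, 29965 and 29486 under vehicle, 37842, 17227, 20049, 11801 and 14530 under semaglutide, and 33006, 38922 and 42066 under semaglutide + ketone ester. Mouse 13 again lay above the vehicle range and the other 4 below it. Tpi1 fell under semaglutide by 0.69 on the log2 scale (SE 0.23, adjusted p = 0.038; 0.092 in edgeR) and was 1.02 higher under semaglutide + ketone ester (SE 0.26, adjusted p = 0.015). Gpi1, the isomerase that follows hexokinase, went the other way under semaglutide, with a rise of 0.28 (SE 0.093, adjusted p = 0.036) and a difference of -0.01 (SE 0.11) between semaglutide + ketone ester and semaglutide.

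Adpgk, which phosphorylates glucose with ADP, rose under semaglutide by 0.52 (SE 0.11, adjusted p = 0.0048), and Hk1, the hexokinase found in most tissues, fell by 0.37 (SE 0.10, adjusted p = 0.015). The enolase Eno1 and Eno1b, which share near-identical sequence so that reads may be divided between them, were higher under semaglutide + ketone ester than semaglutide by 0.86 (SE 0.22, adjusted p = 0.013) and 1.04 (SE 0.20, adjusted p = 0.0037). Eno1b was also lower under semaglutide, by 0.50 (SE 0.18, adjusted p = 0.0498; 0.10 in edgeR). The platelet-type phosphofructokinase Pfkp had a log2 difference of -0.47 between semaglutide + ketone ester and semaglutide (SE 0.14, adjusted p = 0.027).

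Ratios of muscle to other isozymes were tested with exact two-sided permutation tests on the log2 ratio, 6 pairs in 3 comparisons. None of the 18 tests passed after adjustment, but a single pair at the smallest p that 5 against 5 mice allow, 0.0079, would have an adjusted p of 0.14, so this outcome was largely set by the design. The Pgam2 to Pgam1 ratio, with means of 5.75 under semaglutide and 6.85 under vehicle, differed by -1.10 (exact p = 0.032, adjusted p = 0.33). For Ldha over Ldhb the difference was 0.59 (exact p = 0.20, adjusted p = 0.70), with a semaglutide range of 3.51 to 5.35 and a vehicle range of 3.06 to 4.49. The differences under semaglutide were -0.11 for Hk2 over Hk1, -0.17 for Pfkm over Pfkl, -0.088 for Eno3 over Eno1 and 1.42 for Aldoa over Aldoc, the last with Aldoc near 0. For 3 against 5 mice the smallest exact p is 0.018.

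Genes that set the level of fructose bisphosphate and bisphosphoglycerate were followed as a list of 8 regulators, of which 7 were tested. Under semaglutide 1 was higher and 2 were lower than under vehicle (12.5% and 13.9% of all genes), and 2 were higher and 1 lower under semaglutide + ketone ester than semaglutide (10.0% and 10.7% of all genes). Pfkfb2, Pfkfb3, Pfkfb4 and Tigar passed in neither comparison. Pfkfb1 encodes an enzyme that makes and breaks the main activator of phosphofructokinase, and its counts were 793, 740, 677, 864 and 901 under vehicle, 474, 504, 577, 433 and 471 under semaglutide, and 1171, 1207 and 1324 under semaglutide + ketone ester. The 3 groups did not overlap, and mouse 13 lay with the other semaglutide-treated mice. Pfkfb1 fell under semaglutide by 0.69 (SE 0.096, adjusted p = 0.00025), and under semaglutide + ketone ester it was higher by 1.33 (SE 0.11, adjusted p = 9.0e-05) than under semaglutide and by 0.64 (SE 0.11, adjusted p = 0.023) than under vehicle.

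Fbp2 encodes the muscle fructose bisphosphatase, which runs opposite to phosphofructokinase. Its counts were 880, 1138, 784, 746 and 1266 under vehicle, 1856, 2388, 4548, 3541 and 3529 under semaglutide, and 1173, 998 and 1120 under semaglutide + ketone ester. The 5 values under semaglutide exceeded those of all other mice. Fbp2 rose under semaglutide by 1.68 (SE 0.21, adjusted p = 0.00014) and had a log2 difference of -1.46 (SE 0.25, adjusted p = 0.0015) between semaglutide + ketone ester and semaglutide. Bpgm, the bisphosphoglycerate mutase, fell under semaglutide by 0.61 (SE 0.19, adjusted p = 0.027; 0.053 in edgeR) and was 0.92 higher under semaglutide + ketone ester (SE 0.21, adjusted p = 0.0088).

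**Figure D4:**
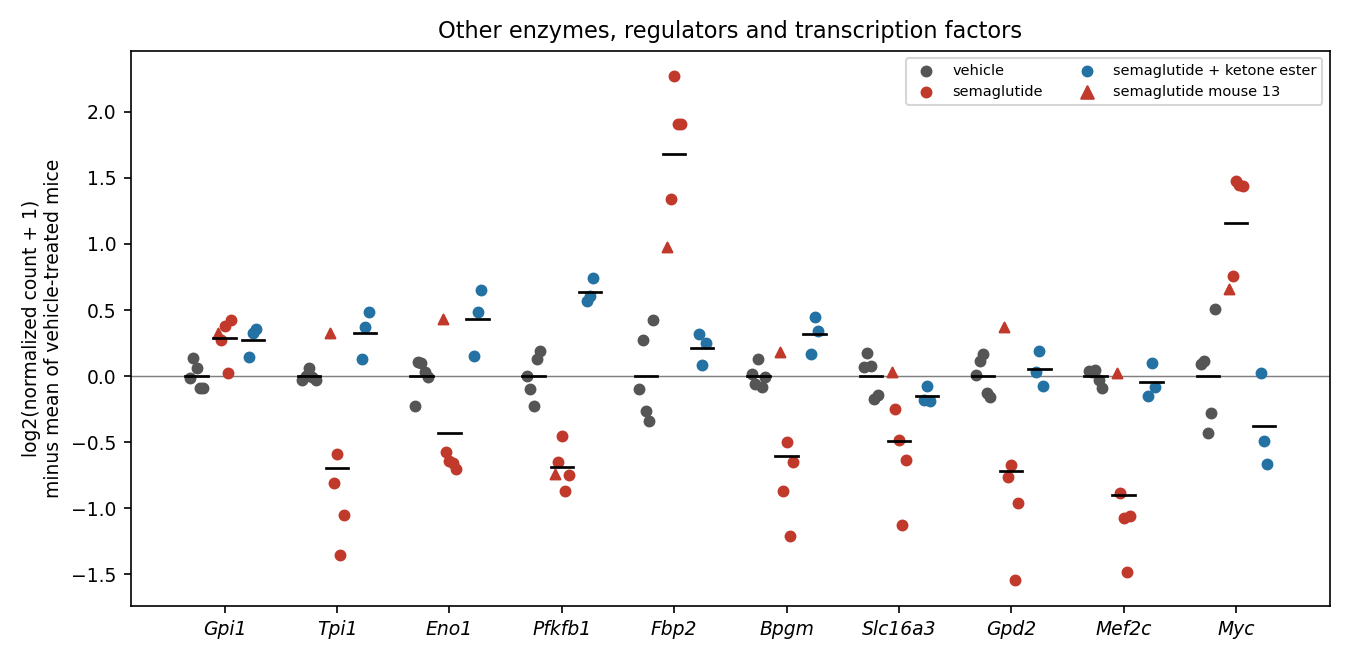
Difference of log2(normalized count + 1) from the mean of vehicle-treated mice for further enzymes, regulators, transporters and transcription factors, with 1 point per mouse, a triangle for semaglutide mouse 13 and a black bar at each group mean. Fbp2 and Myc lie above 0 in all 5 semaglutide-treated mice and Pfkfb1 below 0, while in Tpi1, Bpgm, Gpd2 and Mef2c mouse 13 lies apart from the other 4.

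Of 9 genes for lactate export and the glycerol phosphate shuttle, 0 were higher and 2 lower under semaglutide (12.5% and 13.9% of all genes), and 2 were higher and 0 lower under semaglutide + ketone ester than semaglutide (10.0% and 10.7%). Slc16a3, the lactate exporter of fast fibres, fell by 0.49 (SE 0.16, adjusted p = 0.039; 0.055 in edgeR), and Gpd2, the mitochondrial enzyme of the shuttle, fell by 0.71 (SE 0.25, adjusted p = 0.044; 0.11 in edgeR). Gpd1, its cytosolic partner, was 0.98 higher under semaglutide + ketone ester than semaglutide (SE 0.33, adjusted p = 0.047; 0.12 in edgeR), and Pgp, a phosphoglycolate phosphatase, was 0.44 higher (SE 0.13, adjusted p = 0.030).

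Of 12 transcription factors known to act on glycolytic genes, 1 was higher and 1 lower under semaglutide (12.5% and 13.9% of all genes), and 1 was higher and 2 lower under semaglutide + ketone ester than semaglutide (10.0% and 10.7%). Myc counts were 112, 114, 78.0, 86.5 and 150 under vehicle, 167, 179, 294, 289 and 287 under semaglutide, and 107, 74.9 and 66.1 under semaglutide + ketone ester. No mouse of another group reached the lowest of the semaglutide-treated mice. Myc rose by 1.16 (SE 0.22, adjusted p = 0.0019) under semaglutide and had a difference of -1.53 (SE 0.25, adjusted p = 0.0013) between semaglutide + ketone ester and semaglutide.

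Mef2c encodes a muscle transcription factor of the MEF2 family, and its counts were 14073, 14032, 14167, 13442 and 12905 under vehicle, 13926, 7422, 6533, 4901 and 6572 under semaglutide, and 12359, 14702 and 12984 under semaglutide + ketone ester. Mouse 13 lay inside the vehicle range and the other 4 semaglutide-treated mice at or below 7422. Mef2c fell by 0.90 (SE 0.20, adjusted p = 0.0053) under semaglutide and was 0.85 higher under semaglutide + ketone ester (SE 0.23, adjusted p = 0.019). Eya1, a transcriptional cofactor, had a difference of -0.31 (SE 0.10, adjusted p = 0.046) between semaglutide + ketone ester and semaglutide, while Hif1a, which encodes the hypoxia-inducible factor subunit, had a difference of 0.04 (SE 0.094, adjusted p = 0.81) under semaglutide.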

How the data were processed

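Gastrocnemius RNA of 13 mice was sequenced from stranded mRNA libraries as paired-end reads. The authors aligned reads to mm10 with DRAGEN. They deposited 1 normalized count per gene and mouse (a signal, not raw counts), and per the labels DESeq2 was also used. The counting program's annotation was not given in the sources used here. Values of each mouse were whole multiples of 1 step (100% within 0.01), which gave back whole reads and each depth. Genes with a mean of at least 10 (12303 of 21868) were tested with limma 3.58.1 (R 4.3.3, trend) on log2(normalized count + 1) with 3 groups in the model, Benjamini-Hochberg adjustment and a threshold of 0.05. edgeR 4.0.16 and DESeq2 1.42.0 on whole reads, other scalings, pseudocounts and filters, and leaving out each mouse were alternatives. Scripts were tested on simulated data. Replicates are separate mice, all with the same batch label, and in 23 within-group pairs libraries differed by more than sampling noise. Enzymes and lists were chosen with earlier results of these data known. Named are the 10 enzymes, genes of the lists past the threshold, isozyme partners and, per enzyme, the 3 genes of highest correlation; values of some list genes are not reported here. Copies were sought with BLAST 2.17.0 in GENCODE transcripts, and promoters are from RefSeq.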

Additional observations from a re-analysis of the deposited data

Results flagged for a closer look

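Of 42 groups of 5 mice tested, 3 held a mouse whose gap to the next mouse exceeded 0.71 of the group's range, and chance flags about 1 in 20. Ldhb in semaglutide mouse 14 had a normalized count of 2165, against 1358 in the next of its group. Eno1 in semaglutide mouse 13 was at 813, against 405 in the next. The log2 ratio of Eno3 over Eno1 in vehicle mouse 1 was 7.21, against 7.01 in the next.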

How the results depend on the processing

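Of 240 alternative values per comparison for the enzymes, 214 kept direction and call for semaglutide against vehicle, 185 for semaglutide + ketone ester against semaglutide and 236 for semaglutide + ketone ester against vehicle. For semaglutide against vehicle (3255 genes, 5 enzymes), array weights gave 4986 genes and no filter on low counts 3 enzymes. For semaglutide + ketone ester against semaglutide (2546 genes, 7 enzymes), equal totals gave 4352 genes and 4 enzymes, array weights 4436 genes, and fitting the 2 groups alone 1208 genes and 2 enzymes. Leaving out single mice gave 1148 (without semaglutide + ketone ester mouse 22) to 4119 genes (without semaglutide mouse 13) and 1 to 8 enzymes. For semaglutide + ketone ester against vehicle (45 genes, 0 enzymes), equal totals without the mitochondrial genome gave 110 genes, array weights 318 genes and 1 enzyme, DESeq2 171 and 1, and the 2 groups alone 268 and 1. Leaving out single mice gave 4 to 132 genes and 0 to 1 enzymes. Equal totals moved the median log2 difference of all genes to 0.17 for semaglutide against vehicle (3351 higher, 985 lower) and to -0.24 for semaglutide + ketone ester against semaglutide (637 higher, 3715 lower). Without the mitochondrial genome, the medians were -0.17 (757 higher, 2918 lower) in the latter and -0.11 (11 higher, 99 lower) for semaglutide + ketone ester against vehicle, and the split for semaglutide against vehicle was 1986 higher and 1355 lower. Small differences changed sign. Gapdh for semaglutide against vehicle was 0.0094 with equal totals, and Pgk1 ran from -0.074 to 0.12 when single mice were left out. Aldoa for semaglutide + ketone ester against semaglutide was -0.24 with equal totals, -0.17 without the mitochondrial genome, -0.41 after quantile normalization (adjusted p = 0.036), -0.065 with array weights, -0.0036 in edgeR and -0.0056 in DESeq2, and ran from -0.077 to 0.057 when single mice were left out. For these changes the cause was not tested. Replicate numbers are not shared between groups. No paired analysis was possible because each mouse number belongs to 1 group. With 3 mice under semaglutide + ketone ester, a difference that missed the threshold is not shown to be absent.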
